A study of Mus musculus with 10 samples.

Results

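The 74 genes described here encode heat shock proteins, their J-domain (DNAJ) co-chaperones and the heat shock transcription factors Hsf1 and Hsf2. They were chosen by symbol: Hspa, Hspb, Hsp90, Dnaja, Dnajb and Dnajc genes with a number, together with Hspd1, Hspe1, Hsph1, Hsf1, Hsf2 and Bag3, leaving out 2 rows marked as pseudogenes. They are 74 of 35667 genes in the count files, and 67 of them had enough counts to be tested among 15710 tested genes. RNA sequencing was run on aorta, the largest artery, from C57BL/6 mice aged 12 weeks, in 5 libraries labelled knockout (KO) for Ovgp1, the gene of oviductal glycoprotein 1, and 5 labelled wild type (WT). The titles name Ovgp1 for every KO-labelled library, while the genotype field names Ovgp1 for replicate 1 and Ovgp2 to Ovgp5, by number, for the other 4. No other allele or agent is named, and the way the knockout was made, the sex of the mice and whether each library is 1 animal are not stated in the labels. The series asks about Ovgp1 in remodelling of the vessel wall and blood pressure.

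Hsp70 proteins (the Hspa genes) bind and release unfolded protein in an ATP-driven cycle. J-domain proteins deliver clients and start ATP hydrolysis, and nucleotide exchange factors such as Hsp110 and BAG-domain proteins reset the cycle. Hsp90 proteins finish the folding of kinases and hormone receptors, small heat shock proteins (Hspb) hold unfolding protein without ATP, and the Hspd1-Hspe1 chaperonin folds protein inside mitochondria. In smooth muscle, the small heat shock proteins bind the contractile cytoskeleton, and Bag3 with Hspb8 and Hsp70 clears mechanically damaged filamin. Heat shock factor 1 (Hsf1) turns on the inducible members through heat shock elements, inverted repeats of nGAAn, whereas BiP (Hspa5) and Grp94 (Hsp90b1) of the endoplasmic reticulum (ER) answer to unfolded protein in that compartment.

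Promoter stretches of 4 members on which the results turn are shown first, since they carry these elements. They come from the RefSeq promoter table (GRCm38.p6), run 5′ to 3′ on the gene's strand and end at the base before the start site, which is position -1, or, for Hsp90b1, before the first annotated exon. Capitals in the first 3 mark GAANNTTC or TTCNNGAA, a pair of facing heat shock units. Capitals in Hsp90b1 mark the ER stress element, CCAAT and CCACG with 9 bases of any kind between them, or the reverse complement. The stretches lie at chr17:34959239-34959488 on the minus strand (Hspa1b), chr17:34972157-34972406 on the minus strand (Hspa1a), chr5:135887669-135887918 on the plus strand (Hspb1) and chr10:86705510-86705694 on the minus strand (Hsp90b1).
Hspa1b: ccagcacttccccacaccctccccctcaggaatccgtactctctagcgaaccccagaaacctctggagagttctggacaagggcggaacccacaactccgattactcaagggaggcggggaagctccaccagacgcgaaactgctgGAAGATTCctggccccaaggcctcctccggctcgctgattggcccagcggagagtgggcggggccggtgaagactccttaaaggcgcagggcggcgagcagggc
Hspa1a: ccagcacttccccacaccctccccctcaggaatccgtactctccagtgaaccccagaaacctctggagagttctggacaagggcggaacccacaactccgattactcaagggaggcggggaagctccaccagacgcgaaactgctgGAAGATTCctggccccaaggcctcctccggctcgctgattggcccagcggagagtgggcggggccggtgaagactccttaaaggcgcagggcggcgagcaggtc
Hspb1: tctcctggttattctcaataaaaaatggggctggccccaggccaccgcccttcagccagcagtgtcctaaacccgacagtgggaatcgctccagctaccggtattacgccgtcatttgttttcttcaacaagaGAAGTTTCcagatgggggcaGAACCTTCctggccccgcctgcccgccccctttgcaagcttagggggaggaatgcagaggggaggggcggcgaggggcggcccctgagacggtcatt
Hsp90b1: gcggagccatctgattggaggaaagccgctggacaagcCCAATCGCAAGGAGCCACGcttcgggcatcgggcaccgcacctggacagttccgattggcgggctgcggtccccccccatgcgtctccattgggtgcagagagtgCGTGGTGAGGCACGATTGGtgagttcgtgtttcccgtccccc
The Hspa1a and Hspa1b stretches, of 250 bases each, were identical at 247 positions and held the same pair of units at -104 to -97. Hspb1 held 2 pairs, at -117 to -110 and at -97 to -90. Hsp90b1 held 2 ER stress elements, at -212 to -194 and at -107 to -89.

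RefSeq windows of 250 bases before to 50 after the start were found for 60 of the 74 members and for 27025 genes in all. A window with 3 alternating heat shock units (GAANNTTC followed by NNGAA, or TTCNNGAA followed by NNTTC, both strands) belonged to 4 of the 60 members, 6.67%, against 0.662% of all genes with a window. The members were Hspd1, Hspe1, Hsph1 and Dnajb6. Hspd1 and Hspe1, transcribed away from each other, share theirs. The overlapping sites between their RefSeq starts, and the site in each other member, are shown because they hold the full 3 units. The Hsph1 site lies after the start, at bases 16 to 28 or 37 to 49 depending on the RefSeq start, and the Dnajb6 site before it. All letters of the sites are in capitals since each is the motif alone.
Hspe1, chr1:55088059-55088071, plus strand: TTCTAGAACCTTC
Hspe1, chr1:55088064-55088076, plus strand: GAACCTTCCGGAA
Hsph1, chr5:149636288-149636300, minus strand: TTCTGGAAAGTTC
Dnajb6, chr5:29735852-29735864, plus strand: GAATCTTCCGGAA
The ER stress element was in the windows of 3 of 60 members, 5% against 0.137% of all genes. Besides Hsp90b1, these were Hspa5 and Dnajc3, whose sites, again the motif alone, are given for comparison.
Hspa5, chr2:34772025-34772043, plus strand: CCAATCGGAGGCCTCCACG
Dnajc3, chr14:118937827-118937845, plus strand: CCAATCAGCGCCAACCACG
The pair of facing units alone was common, in 17 of 60 members (28.3%) and in 17% of all genes, as was the CCAAT box (CCAAT or ATTGG), in 43.3% of members and 41.1% of all genes. The pair lies within each 3-unit site and the CCAAT box within each ER stress element. Matches of letters are descriptions of these windows and do not show that a factor binds there.

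Total counts ran from 24434745 to 26694590 in the KO-labelled libraries and from 21242030 to 24396394 in the WT-labelled libraries. Ovgp1 itself went against its label, with 19.4 ± 1.66 CPM (counts over the scaled size of the library; mean ± SD, n = 5) in KO-labelled libraries and 1.98 to 4.69 CPM in WT-labelled libraries, a log2 difference of 2.40 (SE 0.18, edgeR adjusted p = 2.84e-05). Every direction below is therefore between libraries labelled KO and libraries labelled WT. The KO-labelled libraries were nearly copies of each other: a chi-square of counts, divided by its degrees of freedom, was 1.77 to 3.25 in the 10 KO-labelled pairs and 11.0 to 154 in the 10 WT-labelled pairs. A p-value from 5 against 5 libraries rests on a spread pooled over both groups, and it counts near-copies as 5 separate KO libraries. A KO SD covers little beyond counting error. The KO counts were therefore also summed into 1 sample and set against the 5 WT-labelled libraries. Smooth muscle markers were abundant as a sum, and all 6 listed genes were tested. They summed to 36274 to 36928 CPM in KO-labelled and 26401 to 40124 CPM in WT-labelled libraries. Tagln was far lower than the sum, with 20.8 to 23.5 CPM in KO-labelled and 22.3 to 29.3 CPM in WT-labelled libraries. It alone of the 6 passed an adjusted p of 0.05, as lower (log2 difference -0.25, edgeR adjusted p = 0.0458), beside 7.43% lower over all tested genes. Mitochondrially encoded genes took 7.61% to 7.88% of counts in KO-labelled libraries, against 16.2% (WT replicate 1), 13.2% (WT replicate 3) and 6.75% to 9.59% (other WT-labelled libraries). In bulk tissue, fewer cells of a type and less RNA per cell cannot be told apart.

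Per kilobase of annotated exon, Hspb1 was the most abundant member, with a mean level of 715 CPM per kb in KO-labelled and 1129 CPM per kb in WT-labelled libraries. The constitutive cytosolic chaperones came next. Hsp90ab1 had a level of 594 CPM per kb in KO-labelled and 567 CPM per kb in WT-labelled libraries, and Hspa8 had 497 CPM per kb in KO-labelled and 535 CPM per kb in WT-labelled libraries. Hspb7 of muscle had 228 CPM per kb in KO-labelled and 235 CPM per kb in WT-labelled libraries, and BiP (Hspa5) had 202 CPM per kb in KO-labelled and 175 CPM per kb in WT-labelled libraries. All 74 members together took 1.156% to 1.171% of counts in KO-labelled libraries and 1.022% to 1.256% in WT-labelled libraries, ranges that overlap.

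Of the 67 tested members, 10 passed an adjusted p of 0.05 in the 5 against 5 comparison (edgeR quasi-likelihood test, Benjamini-Hochberg over all tested genes), 6 higher and 4 lower in KO-labelled libraries. That is 14.9% of members, near the background of 14.3% of all tested genes (6.84% higher and 7.43% lower). Scaling by total counts alone gave 8 higher and 3 lower. Leaving out KO replicate 1, 3 or 5 gave 6 members each time, 3 higher and 3 lower. The 6 higher were Hsp90b1, Hspa12a, Dnaja4, Dnajc12, Dnajc14 and Dnajc27, and the 4 lower were Hspb1, Hspb6, Bag3 and Dnajc7. All 5 KO-labelled libraries lay above all 5 WT-labelled ones for 5 members and below them for 5, together 14.9%, where the background was 14.6% (7.38% above and 7.22% below). The median log2 difference of the members was 0.03, with 40 of 67 positive, beside -0.02 over all tested genes. With the KO counts summed into 1 sample, 0 members passed (edgeR, adjusted p = 0.999 for each). There, 5 members (Dnajc27, Dnajc7, Dnaja4, Hsp90b1 and Bag3) passed 0.05 before adjustment, 7.46% of members against a background of 3.72%. Across all genes 7 passed there, 0.0446% of those tested. Of the 10 called members, 6 kept the call under each of 17 other settings of the 5 against 5 comparison, and Hspb6, Hspa12a, Dnajc12 and Dnajc14 lost it under at least 1.

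**Figure D1:**
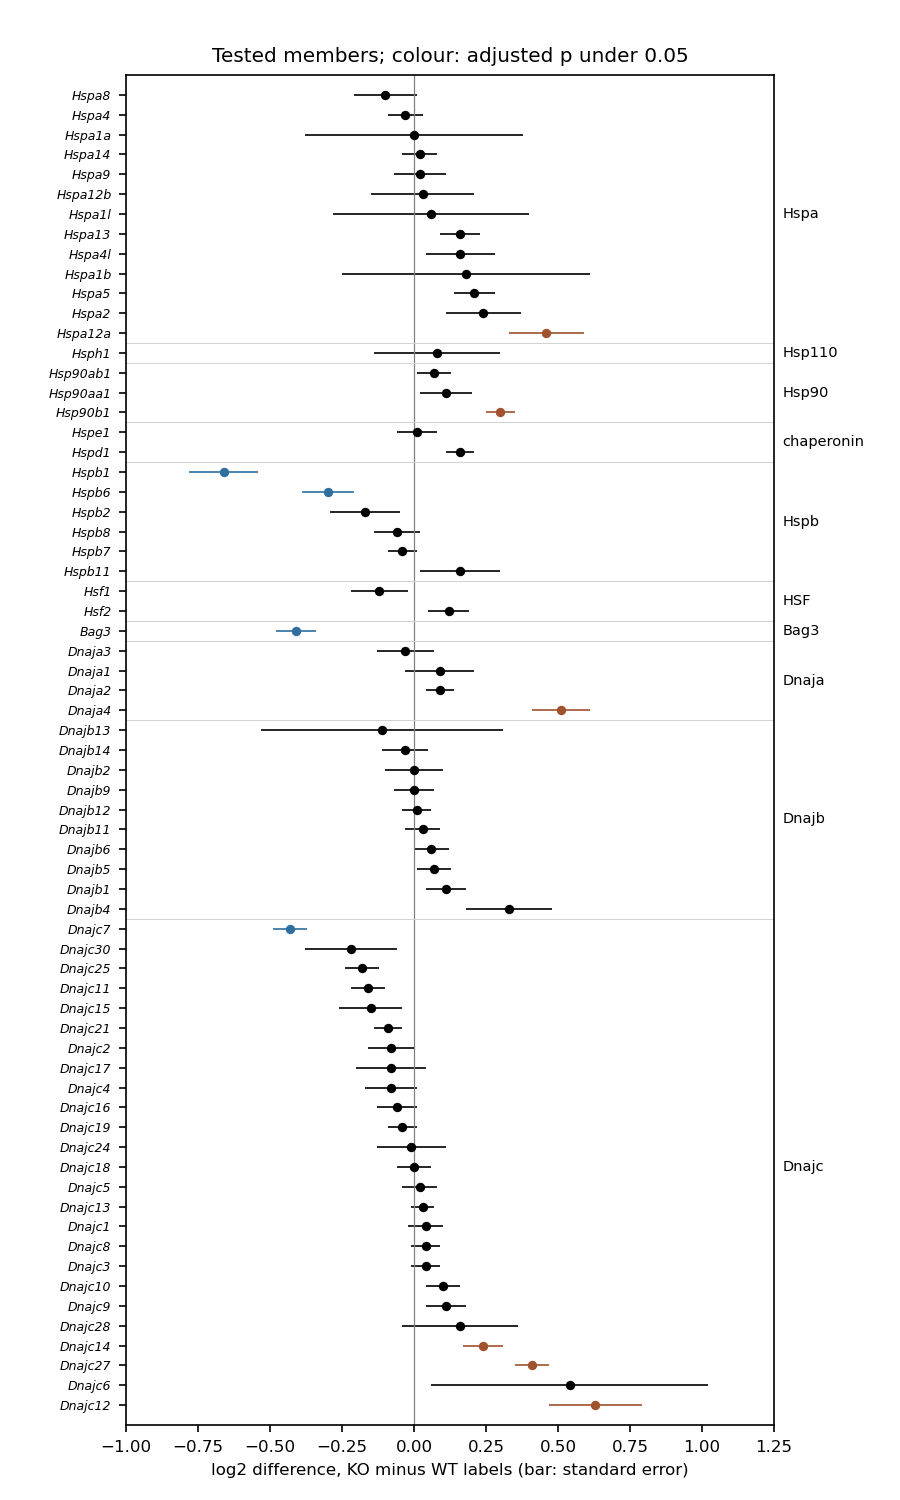
Log2 difference, KO-labelled over WT-labelled, of each tested member with its standard error from the 5 against 5 edgeR fit, ordered by family. Coloured points passed an adjusted p of 0.05, with 6 higher (brown) and 4 lower (blue) in KO-labelled libraries, from 0.63 for Dnajc12 to -0.66 for Hspb1.

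The small heat shock protein genes held the greatest fall among the members. Hspb1 (Hsp25, the mouse form of human HSP27, an actin-binding chaperone; chr5:135887919-135889563, GRCm38) had 769, 661, 758, 757 and 742 CPM in the KO-labelled libraries, against 1168, 1594, 990, 1004 and 1065 CPM in the WT-labelled libraries. Every KO-labelled library lay below every WT-labelled one, and WT replicate 2 stood highest. The mean was 737 ± 43.7 CPM in KO-labelled and 1164 ± 250 CPM in WT-labelled libraries (SD, n = 5 each), a log2 difference of -0.66 (SE 0.12, edgeR adjusted p = 0.00533) or 0.633 times the WT-labelled level. WT replicate 2 also had the highest summed level of 6 heart muscle markers, 153 CPM against 55.0 to 83.8 CPM in the other WT-labelled libraries, with 70.0 to 74.2 CPM in KO-labelled libraries. Of those markers 4 were tested, and Myl2 and Nppa were under 1 CPM in every library. Without WT replicate 2 the log2 difference of Hspb1 was -0.51 (edgeR adjusted p = 0.000681).

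Hspb6 (Hsp20, phosphorylated when smooth muscle relaxes; chr7:30552178-30555443) had 166, 163, 163, 164 and 161 CPM in KO-labelled libraries, against 243, 222, 186, 173 and 182 CPM in WT-labelled libraries. All KO-labelled values were again below all WT-labelled values, but WT replicate 4 came close. The log2 difference was -0.30 (SE 0.09, edgeR adjusted p = 0.0390). The call was lost without any 1 of the KO-labelled libraries (adjusted p 0.0786 to 0.0910), without WT replicate 1 (0.0723) and without WT replicate 2 (0.0776).

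Bag3 (chr7:128523616-128546981), the BAG-domain partner of Hspb8 and Hsp70, was lower too. It had 66.4, 66.8, 66.7, 68.0 and 68.0 CPM in KO-labelled libraries, against 103, 96.0, 90.2, 78.1 and 80.9 CPM in WT-labelled libraries, with no overlap. The log2 difference was -0.41 (SE 0.07, edgeR adjusted p = 0.00347). Its partner Hspb8 did not pass, with 229 to 233 CPM in KO-labelled and 209 to 293 CPM in WT-labelled libraries (log2 difference -0.06, edgeR adjusted p = 0.622). Neither did Hspb7 of striated and smooth muscle, with 621 to 639 CPM in KO-labelled and 602 to 680 CPM in WT-labelled libraries (log2 difference -0.04, adjusted p = 0.592). Hspb2, which overlaps Cryab on the opposite strand, had 5.86 to 7.46 CPM in KO-labelled and 5.89 to 8.70 CPM in WT-labelled libraries. Hspb11, a subunit of the intraflagellar transport machinery, had 8.10 to 9.06 CPM in KO-labelled and 6.04 to 9.74 CPM in WT-labelled libraries. Of the 6 tested Hspb members, 2 were lower and 0 higher in KO-labelled libraries, beside 7.43% lower and 6.84% higher over all tested genes, and Hspb6 is the less stable of the 2. The order of the WT-labelled libraries differed between these genes, since Hspb1 was highest in WT replicate 2 while Hspb6 and Bag3 were highest in WT replicate 1.

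**Figure D2:**
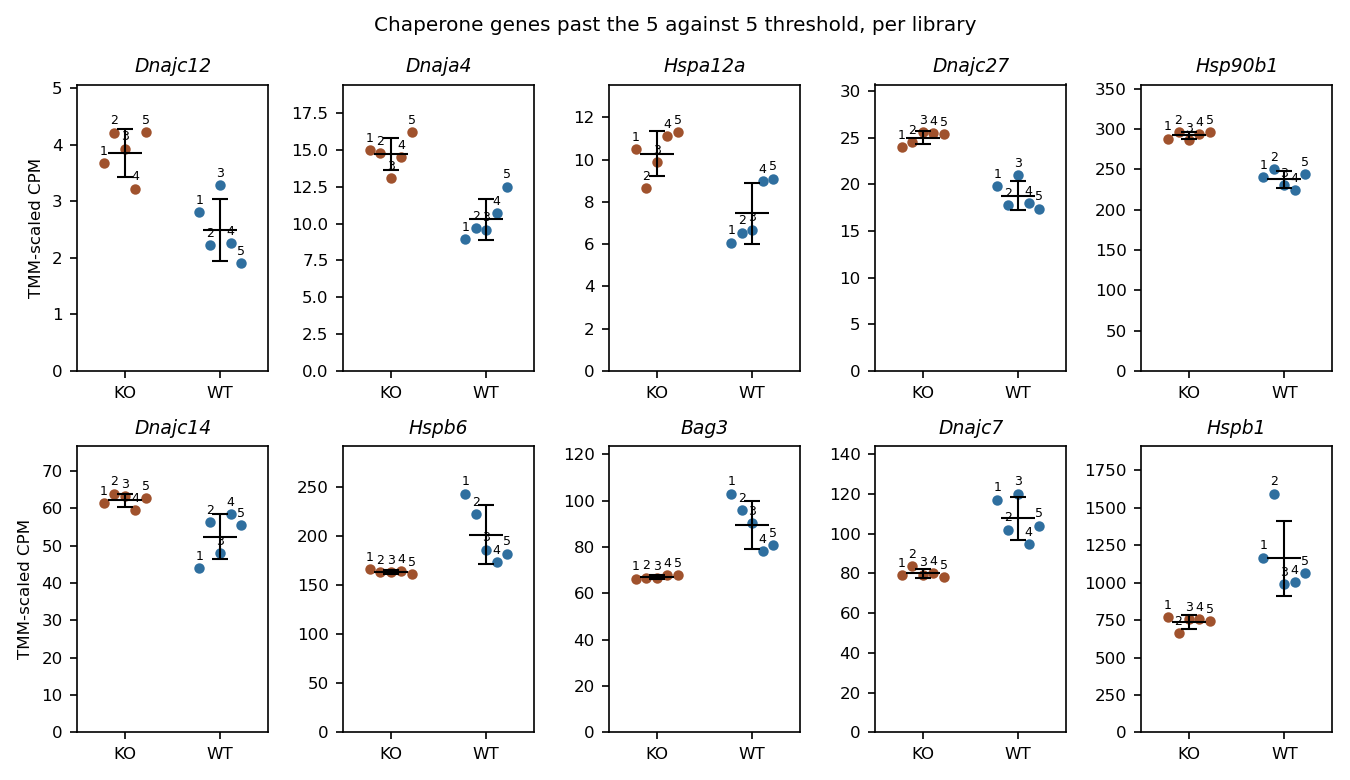
CPM of the 10 called members in each library, KO-labelled at the left of WT-labelled in each panel, numbered by replicate, with bars for the mean and SD (n = 5 each). The KO-labelled points cluster tightly; for Hspa12a and Dnajc12 they overlap the WT-labelled points.

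Within the Hsp90 family the ER member Hsp90b1 (Grp94; chr10:86690209-86705509) rose. It had 288, 296, 286, 294 and 296 CPM in KO-labelled libraries, against 240, 250, 230, 224 and 244 CPM in WT-labelled libraries. The groups did not overlap, and the log2 difference was 0.30 (SE 0.05, edgeR adjusted p = 0.00202). The cytosolic Hsp90 genes did not pass. Hsp90ab1, the constitutive form, had 1773, 1777, 1794, 1788 and 1771 CPM in KO-labelled libraries, against 1851, 1800, 1721, 1498 and 1626 CPM in WT-labelled libraries (log2 difference 0.07, SE 0.06, edgeR adjusted p = 0.518). Hsp90aa1, the stress-inducible form, had 506 to 518 CPM in KO-labelled and 400 to 599 CPM in WT-labelled libraries (log2 difference 0.11, edgeR adjusted p = 0.458). WT replicate 1 held its highest value and was the only WT-labelled library above the KO-labelled range. Without that library the log2 difference was 0.22, but leaving it out fixes the direction, so no test is drawn.

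BiP (Hspa5), the Hsp70 of the ER and the other abundant gene with an ER stress element, lay just outside the threshold. It had 860, 854, 840, 868 and 860 CPM in KO-labelled libraries, against 798, 830, 726, 641 and 702 CPM in WT-labelled libraries. Every KO-labelled library was above every WT-labelled one, with a log2 difference of 0.21 (SE 0.07, edgeR adjusted p = 0.0609). It passed without WT replicate 1 (adjusted p = 0.0459) or 2 (0.0152), where the WT-labelled values were highest, and without WT replicates 1 and 3 together (0.0271). It also passed without a filter (0.00584), with total counts alone (0.0189), with DESeq2 (0.0199) and with limma-voom (1.33e-05). Over all genes, 27.2% passed without WT replicates 1 and 3 and 41.2% with limma-voom, beside 14.3% in the main fit. BiP stayed outside the threshold without any 1 KO-labelled library and without WT replicate 3, 4 or 5. The same held with a replicate block and with DESeq2 size factors. Dnajc3 (p58IPK), a BiP co-chaperone of the ER lumen whose window also holds the element, had 183 to 195 CPM in KO-labelled and 169 to 198 CPM in WT-labelled libraries, and did not pass (edgeR adjusted p = 0.653). The ER lumen J-domain genes Dnajb9, Dnajb11 and Dnajc10 were at 65.6 to 71.3, 74.8 to 82.1 and 141 to 150 CPM in KO-labelled libraries. In WT-labelled libraries they were at 57.3 to 73.9, 72.8 to 87.4 and 125 to 151 CPM. Each range in KO-labelled libraries lay inside or overlapped its range in WT-labelled libraries. Hspa13, a microsomal Hsp70-like ATPase, had 38.3 to 43.8 CPM in KO-labelled and 33.4 to 41.2 CPM in WT-labelled libraries (log2 difference 0.16, edgeR adjusted p = 0.126, and 0.0351 without WT replicate 2). Of the 3 genes with the element, Hsp90b1 alone passed in the 5 against 5 edgeR fit.

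Markers of other cells differed between the groups as well. Over all tested genes, 6.84% passed as higher and 7.43% as lower. Of the lymphocyte markers, Ighm, Igkc and Jchain passed as higher while Cd79a and Cd3e were under 1 CPM in every library. Ighm had 156 to 159 CPM in KO-labelled and 4.35 to 11.9 CPM in WT-labelled libraries. Fibroblast markers (5 of 5 tested, 3 higher) summed to 2287 to 2331 CPM in KO-labelled and 1505 to 1973 CPM in WT-labelled libraries. Macrophage markers (5 of 5 tested, 2 higher) summed to 194 to 205 CPM in KO-labelled and 133 to 211 CPM in WT-labelled libraries, and red cell markers (5 of 5 tested, all lower) to 19.2 to 21.3 CPM in KO-labelled and 65.7 to 327 CPM in WT-labelled libraries. Their part in the levels of Hsp90b1, BiP and the other members was not tested.

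The heat-inducible Hsp70 genes did not pass, and their spread was almost wholly among the WT-labelled libraries. Hspa1b had 59.4, 58.4, 54.0, 59.2 and 58.1 CPM in KO-labelled libraries, against 115, 17.1, 66.1, 25.1 and 32.9 CPM in WT-labelled libraries. Hspa1a had 24.3, 23.8, 26.6, 24.0 and 24.0 CPM in KO-labelled libraries, against 48.4, 8.64, 33.0, 15.4 and 17.6 CPM in WT-labelled libraries. For both genes WT replicates 1 and 3 lay above the KO-labelled range and WT replicates 2, 4 and 5 below it. The log2 differences were 0.18 (SE 0.43, edgeR adjusted p = 0.829) and -0.00 (SE 0.38, adjusted p = 0.998). The genes are near-identical copies, with 58.8% of the 50-base windows of the Hspa1a transcript also present in Hspa1b, so the split of reads between them is uncertain. Summed, they had 80.6 to 83.7 CPM in KO-labelled libraries, against 163, 25.8, 99.1, 40.5 and 50.5 CPM in WT-labelled libraries.

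Some other inducible members also had WT replicate 1 highest and WT replicate 3 next. Hsph1, the Hsp110 exchange factor with the 3-unit element shown above, had 259, 260, 266, 261 and 263 CPM in KO-labelled libraries, against 389, 193, 307, 152 and 199 CPM in WT-labelled libraries. The J-domain gene Dnajb4 had 332, 326, 325, 330 and 330 CPM in KO-labelled libraries, against 373, 193, 290, 213 and 234 CPM in WT-labelled libraries. Both had WT replicate 1 highest and WT replicate 3 next, and for Hsph1 both of these lay above every KO-labelled library. Dnaja1, a type A J-domain partner of Hsc70, had 191 to 201 CPM in KO-labelled libraries, against 242, 179, 196, 143 and 159 CPM in WT-labelled libraries. None of the 3 passed, with log2 differences of 0.08 (edgeR adjusted p = 0.847), 0.33 (0.168) and 0.09 (0.643). For Dnajb4 the log2 difference without WT replicate 1 was 0.51. That was the only WT-labelled library above the KO-labelled range of Dnajb4, so leaving it out fixes the direction, and no test is drawn. The order was not shared by all inducible members. Hsp90aa1 was highest in WT replicate 1 and next in WT replicate 2, and Dnajb1 was highest in WT replicate 3 and next in WT replicate 1. Nor was it confined to chaperones, since the smooth muscle marker Acta2 also had WT replicate 1 highest and WT replicate 3 next.

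WT replicates 1 and 3 are the libraries with the highest mitochondrial shares given above, and they also had the highest summed smooth muscle markers, 40042 and 40124 CPM, against 26401 to 32145 CPM in WT replicates 2, 4 and 5. Brown adipocyte markers (5 of 5 tested) ran the other way in part, with 180 to 196 CPM in KO-labelled libraries, against 159, 182, 49.1, 762 and 552 CPM in WT replicates 1 to 5. Of the immediate early genes (23 of 23 tested), 1 was higher and 4 lower, beside 6.84% higher and 7.43% lower over all tested genes. They summed to 1186 to 1227 CPM in KO-labelled libraries, against 1342, 1245, 1209, 1588 and 1482 CPM in WT-labelled libraries. Single genes of that list ran otherwise than the sum. Fosb, Atf3 and Junb were named after their values were seen. Fosb had 10.3 to 12.4 CPM in KO-labelled libraries, against 17.8, 1.67, 15.0, 7.08 and 7.15 CPM in WT-labelled libraries. That is the same order of WT-labelled libraries as Hspa1a and Hspa1b. Atf3 had 32.9 to 36.4 CPM in KO-labelled libraries, against 38.5, 6.97, 41.1, 11.9 and 16.2 CPM in WT-labelled libraries. Other genes of the list ran the other way, with WT replicates 4 and 5 above WT replicates 1 and 3. Nr4a3, called lower, had 17.1 to 18.0 CPM in KO-labelled libraries, against 37.5, 189, 25.7, 188 and 163 CPM in WT-labelled libraries. Junb had 19.0 to 21.9 CPM in KO-labelled libraries, against 12.5, 14.4, 18.8, 56.9 and 44.3 CPM in WT-labelled libraries. The part of these in the chaperone levels was not tested. With both replicates left out, for their mitochondrial share, the log2 difference was 1.22 for Hspa1b, 0.84 for Hspa1a, 0.55 for Hsph1, 0.64 for Dnajb4 and 0.30 for Dnaja1. For Hspa1b, Hspa1a and Hsph1 these are the WT-labelled libraries that lay above the KO-labelled range. For Dnajb4 only WT replicate 1 lay above it, and for Dnaja1 WT replicate 1 lay above it and WT replicate 3 within it. Leaving out both replicates fixes the direction for these genes, and no test is drawn from these values. In that fit 27 members passed, 40.3% against a background of 27.2%, of which 20 were higher in KO-labelled libraries (29.9%, background 13.7%). The libraries left out held the highest values of Hspa1b, Hspa1a and Hsph1 among the WT-labelled ones, so no result about the members is drawn from these shares. With limma-voom, which gives each library a weight, 33 passed, 23 of them higher (34.3%, background 19.1%). The KO-labelled libraries, nearly copies of each other, limit that fit as well.

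**Figure D3:**
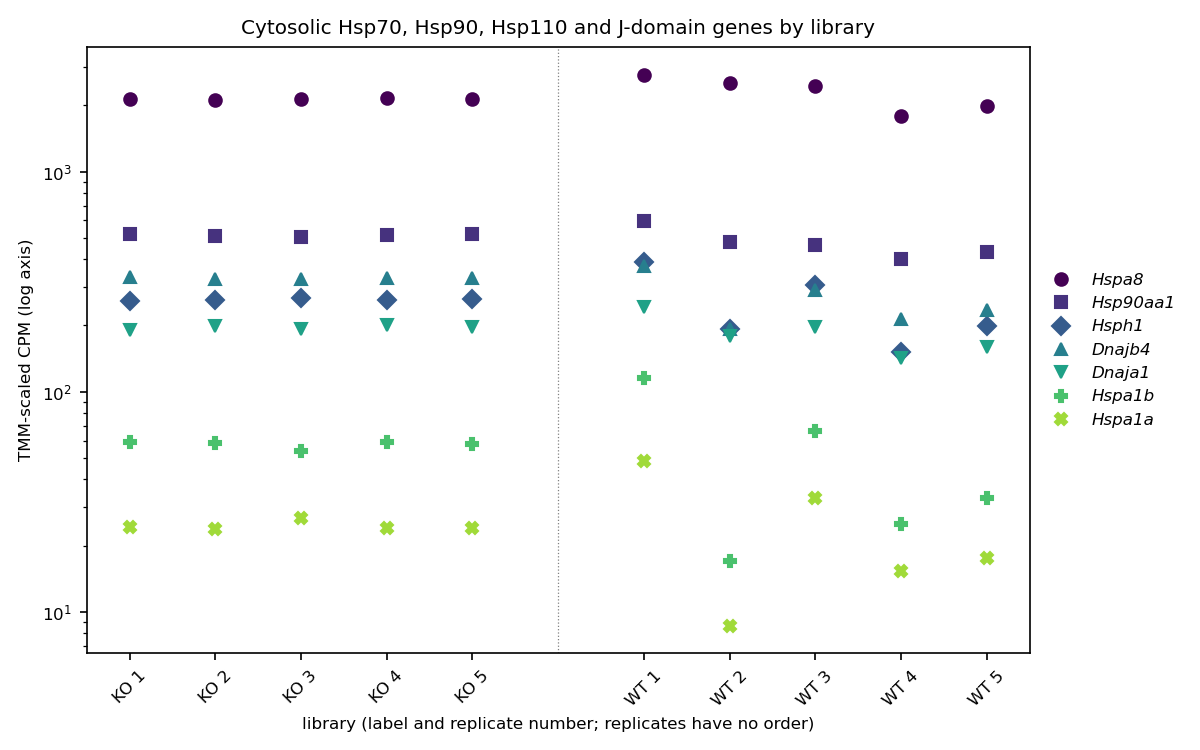
CPM of inducible and constitutive cytosolic chaperone genes in each library on a log axis, KO-labelled libraries at the left and WT-labelled libraries at the right. Hspa1b runs from 54.0 to 59.4 CPM across the KO-labelled libraries and from 17.1 to 115 CPM across the WT-labelled libraries.

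The transcription factors themselves varied less across the WT-labelled libraries than Hspa1b, Hspa1a and Hsph1. Their ratios of highest to lowest WT-labelled library were 1.57 for Hsf1 and 1.26 for Hsf2, beside a median of 1.32 over 64 members. Hsf1, the main activator of heat shock genes, had 54.2 ± 1.82 CPM in KO-labelled and 59.0 ± 9.93 CPM in WT-labelled libraries (SD, n = 5 each; log2 difference -0.12, edgeR adjusted p = 0.447). It was highest in WT replicates 3 and 1. Hsf2, a related factor best known from development and spermatogenesis, had 18.9 ± 1.09 CPM in KO-labelled and 17.4 ± 1.61 CPM in WT-labelled libraries (log2 difference 0.12, adjusted p = 0.303). Dnajb1, the main inducible J-domain partner of Hsp70, had 54.1 to 62.8 CPM in KO-labelled and 48.0 to 59.9 CPM in WT-labelled libraries (adjusted p = 0.296).

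Among the other Hsp70 genes, Hspa8 (Hsc70, the constitutive form) had 2147, 2124, 2131, 2153 and 2142 CPM in KO-labelled libraries, against 2760, 2535, 2437, 1780 and 1992 CPM in WT-labelled libraries. The KO-labelled values sat in the gap between WT replicates 1 to 3 and 4 to 5, and the log2 difference was -0.10 (SE 0.11, edgeR adjusted p = 0.553). Hspa12a (chr19:58795750-58943654), a distant Hsp70 relative, had 10.5, 8.65, 9.89, 11.1 and 11.3 CPM in KO-labelled libraries, against 6.07, 6.54, 6.69, 8.97 and 9.10 CPM in WT-labelled libraries. The groups overlapped at KO replicate 2, and the log2 difference was 0.46 (SE 0.13, edgeR adjusted p = 0.0395). That call was lost without KO replicates 1, 3, 4 or 5 (adjusted p 0.0732 to 0.100) and without WT replicates 1 (0.0565), 2 (0.0517) or 3 (0.0632). Its relative Hspa12b, known from endothelium, had 13.1 to 14.6 CPM in KO-labelled libraries and 8.98 to 19.0 CPM in WT-labelled libraries. Endothelial markers (5 of 5 tested) summed to 249 to 259 CPM in KO-labelled and 140 to 580 CPM in WT-labelled libraries. WT replicate 4 was highest and WT replicate 5 next for Hspa12b and for Cdh5, Vwf, Tie1 and Emcn. The remaining marker, Pecam1, the most abundant of the list, was highest in WT replicate 2, at 405 CPM. Hspa12b was lowest in WT replicate 2 and the marker sum in WT replicate 3. The part of endothelium in the Hspa12b level was not tested.

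The exchange factors Hspa4 and Hspa4l, close relatives of Hsph1, had 195 to 199 and 40.0 to 42.9 CPM in KO-labelled libraries, against 189 to 229 and 31.8 to 50.8 CPM in WT-labelled libraries. Neither passed. Without WT replicate 1 the log2 difference of Hspa4l was 0.31. That was the only WT-labelled library above the KO-labelled range of Hspa4l, so leaving it out fixes the direction, and no test is drawn. Hspa2, best known from the testis, had 92.5 to 102 CPM in KO-labelled and 58.2 to 104 CPM in WT-labelled libraries, while 4 testis germ cell markers were under 1 CPM in every library. Hspa14, a ribosome-associated form, had 24.5 to 29.7 CPM in KO-labelled and 24.4 to 27.7 CPM in WT-labelled libraries. Hspa1l, beside Hspa1a on chromosome 17, had 21 to 44 counts in KO-labelled and 14 to 47 counts in WT-labelled libraries. Of the 13 Hspa members, Hspa12a alone passed, beside 14.3% of all tested genes.

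The mitochondrial chaperones are Hspd1 (Hsp60) and Hspe1 (Hsp10), which form the folding chamber, and Hspa9 (mortalin), the motor of protein import. Hspd1 had 171, 170, 177, 172 and 175 CPM in KO-labelled libraries, against 153, 142, 151, 172 and 158 CPM in WT-labelled libraries. WT replicate 4 alone reached the KO-labelled range, and the log2 difference was 0.16 (SE 0.05, edgeR adjusted p = 0.0660). It passed without WT replicate 2 (edgeR adjusted p = 0.0498). Without WT replicate 4 the log2 difference was 0.20, but leaving out the only WT-labelled library in the KO-labelled range fixes the direction. No test is drawn from that value. Hspe1 had 81.8 to 88.5 CPM in KO-labelled and 74.2 to 97.7 CPM in WT-labelled libraries, and Hspa9 had 216 to 221 CPM in KO-labelled and 182 to 260 CPM in WT-labelled libraries. Neither passed. Among the WT-labelled libraries, replicate 1 was highest for Hspe1 and lowest for Hspa9, and replicate 4 was highest for Hspa9 and Hspd1 and lowest for Hspe1. The Hspd1 and Hspe1 genes overlap on opposite strands at their starts, and no source names the strand setting of the counts.

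J-domain genes make up 44 of the 74 members, and 39 were tested, with 4 higher and 1 lower in KO-labelled libraries, beside 6.84% higher and 7.43% lower over all tested genes. Dnajc7 (Tpr2; chr11:100582818-100620168), which binds both Hsp70 and Hsp90 through its repeats, was the lower one. It had 79.1, 83.5, 79.3, 79.9 and 77.9 CPM in KO-labelled libraries, against 117, 102, 120, 94.8 and 104 CPM in WT-labelled libraries. There was no overlap, and the log2 difference was -0.43 (SE 0.06, edgeR adjusted p = 0.00187). The gene overlaps Cnp and Nkiras2 on the opposite strand, so its counts may share reads with theirs.

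Dnajc27 (a Rab-like GTPase with a J domain; chr12:4082583-4110606) was higher. It had 24.0, 24.5, 25.6, 25.5 and 25.4 CPM in KO-labelled libraries, against 19.8, 17.8, 21.0, 18.0 and 17.4 CPM in WT-labelled libraries. All KO-labelled values were above all WT-labelled values, with a log2 difference of 0.41 (SE 0.06, edgeR adjusted p = 0.00204). Dnaja4 (chr9:54698873-54716315), a type A cytosolic J-domain protein, had 15.0, 14.8, 13.1, 14.5 and 16.2 CPM in KO-labelled libraries, against 8.92, 9.71, 9.58, 10.7 and 12.5 CPM in WT-labelled libraries. Those groups did not overlap either, and the log2 difference was 0.51 (SE 0.10, edgeR adjusted p = 0.00646).

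Dnajc12 (chr10:63382443-63410576), whose human counterpart assists the aromatic amino acid hydroxylases such as tyrosine hydroxylase, was low in every library. It had 3.67, 4.21, 3.93, 3.22 and 4.22 CPM in KO-labelled libraries, against 2.81, 2.22, 3.29, 2.26 and 1.90 CPM in WT-labelled libraries. KO replicate 4 fell below WT replicate 3, and the log2 difference was 0.63 (SE 0.16, edgeR adjusted p = 0.0248). The call was lost without KO replicates 1, 2, 3 or 5 (adjusted p 0.0524 to 0.0670) and without WT replicate 5 (0.0531). Markers of Schwann cells and nerve, tyrosine hydroxylase (Th) among them, summed to 39.6 to 43.5 CPM in KO-labelled and 15.0 to 22.5 CPM in WT-labelled libraries, with 6 of 6 tested; the part of nerve in the Dnajc12 level was not tested.

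Dnajc14 (chr10:128804062-128819446), an ER membrane protein that helps receptors leave the ER, had 61.3, 63.9, 63.3, 59.5 and 62.7 CPM in KO-labelled libraries, against 44.0, 56.3, 48.0, 58.4 and 55.5 CPM in WT-labelled libraries. The groups did not overlap, although KO replicate 4 and WT replicate 4 were close. The log2 difference was 0.24 (SE 0.07, edgeR adjusted p = 0.0471), and the call was lost without any 1 KO-labelled library (adjusted p 0.0771 to 0.107), without WT replicate 3 (0.0754) and without WT replicate 5 (0.0593). The gene overlaps Sarnp on the same strand. Of the 10 called members, 7 overlap another annotated gene, and Hspb1, Dnajc12 and Dnajc27 do not.

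The J-domain genes of highest mean CPM, a measure not scaled to gene length, were Dnajb4, Dnaja1, Dnajc3, Dnajb5, Dnaja2 and Dnajc8, and none passed. Dnajb5, an inducible type B form, had 175 to 186 CPM in KO-labelled and 156 to 191 CPM in WT-labelled libraries. Dnaja2, a type A partner of Hsc70, had 146 to 154 CPM in KO-labelled and 132 to 154 CPM in WT-labelled libraries. Dnajc8, associated with the spliceosome, had 141 to 148 CPM in KO-labelled and 128 to 152 CPM in WT-labelled libraries. The other J-domain genes tested, 28 in number, also did not pass, with log2 differences between -0.22 (Dnajc30) and 0.54 (Dnajc6, at 11 to 23 counts in KO-labelled and 1 to 20 counts in WT-labelled libraries). Dnajc25 was the only uncalled member with all KO-labelled libraries below all WT-labelled ones, at 21.2 to 24.2 CPM in KO-labelled and 24.6 to 28.0 CPM in WT-labelled libraries (log2 difference -0.18, edgeR adjusted p = 0.0625); it was named after its values were seen.

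Those 28 cover most compartments of the cell. In mitochondria, Dnaja3 (Tid1, a partner of mortalin) had 42.9 to 44.8 CPM in KO-labelled and 33.8 to 53.0 CPM in WT-labelled libraries, and Dnajc11, of the inner membrane organising complex, had 46.4 to 49.4 CPM in KO-labelled and 47.6 to 59.6 CPM in WT-labelled libraries. Dnajc15 and Dnajc19, of the import motor, had 19.0 to 22.9 and 24.1 to 26.0 CPM in KO-labelled libraries, against 18.8 to 29.1 and 24.4 to 27.2 CPM in WT-labelled libraries. Dnaja3 and Dnajc15, like Hspa9, were highest in WT replicates 4 and 5, the libraries richest in brown adipocyte markers. Dnajc19 ran the other way, lowest in WT replicate 4 and next lowest in WT replicate 5. The part of brown adipocytes in these levels was not tested. On vesicles, Dnajc5 (cysteine string protein) had 97.2 to 102 CPM in KO-labelled and 90.4 to 108 CPM in WT-labelled libraries, and the endosomal Dnajc13 had 46.4 to 50.3 CPM in KO-labelled and 44.9 to 47.8 CPM in WT-labelled libraries. In the nucleus and on ribosomes, the histone chaperone Dnajc9 had 22.9 to 26.0 CPM in KO-labelled and 19.5 to 24.5 CPM in WT-labelled libraries, and the ribosome-bound Dnajc2 had 23.8 to 25.5 CPM in KO-labelled and 21.4 to 28.5 CPM in WT-labelled libraries. Dnajb2 and Dnajb6, which keep aggregation-prone protein soluble, had 103 to 107 and 102 to 107 CPM in KO-labelled libraries, against 82.1 to 125 and 87.2 to 108 CPM in WT-labelled libraries. Each of these ranges overlapped between the groups. The 7 members with too few counts to test were Dnajb3, Dnajb7, Dnajb8, Dnajc5g, Dnajc22, Hspb3 and Hspb9, with 0 to 11 counts per library.

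The KO-labelled libraries varied little in most members that were not low. Among 64 members averaging 1 or more on the log2 CPM scale, the median ratio of the highest to the lowest library was 1.08 in KO-labelled and 1.32 in WT-labelled libraries, beside 1.12 in KO-labelled and 1.36 in WT-labelled libraries over 12631 genes. None of these 64 exceeded a ratio of 1.5 in KO-labelled libraries, where Dnajc28 was widest at 1.49. In WT-labelled libraries 20 exceeded 1.5 and 4 exceeded 2, namely Hspa1b (6.69), Hspa1a (5.61), Hsph1 (2.56) and Hspa12b (2.11). For scale, 5% of the 12631 genes had a ratio above 2.99 in WT-labelled libraries.

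**Figure D4:**
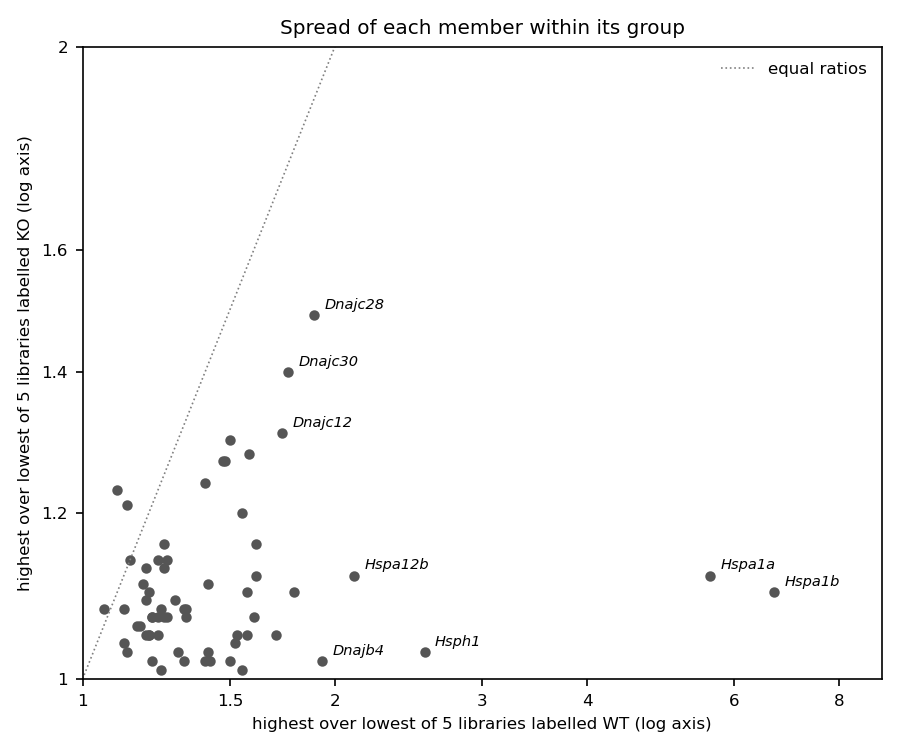
Ratio of the highest to the lowest library for each member averaging 1 or more on the log2 CPM scale, with KO-labelled libraries on the vertical and WT-labelled libraries on the horizontal log axis; the dotted line marks equal ratios. In WT-labelled libraries Hspa1b reaches 6.69 and Hspa1a 5.61, and in KO-labelled libraries every member shown stays at or below 1.49.

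Genes that work beside these chaperones were read from lists of partners. The counts of called genes here and below stand beside 14.3% of all tested genes, 6.84% higher and 7.43% lower. No list was tested as a set. Among 11 tested exchange and regulatory factors of Hsp70, Bag1 alone passed. It had 110, 109, 117, 114 and 110 CPM in KO-labelled libraries, against 135, 135, 149, 146 and 139 CPM in WT-labelled libraries, a log2 difference of -0.33 (SE 0.05, edgeR adjusted p = 0.000969), so it lay lower beside Bag3. Among 18 Hsp90 co-chaperones 2 were lower and 0 higher. They were Fkbp5, the glucocorticoid-induced immunophilin, with 163 to 177 CPM in KO-labelled and 196 to 591 CPM in WT-labelled libraries (log2 difference -1.10, SE 0.27, edgeR adjusted p = 0.0246), and Cdc37l1, at -0.19 (adjusted p = 0.0338). The kinase-loading partner Cdc37 had 259 to 274 CPM in KO-labelled and 261 to 312 CPM in WT-labelled libraries, and the myosin chaperone Unc45a had 218 to 231 CPM in KO-labelled and 200 to 247 CPM in WT-labelled libraries; neither passed. Hyou1, the ER exchange factor of BiP, had 132 to 139 CPM in KO-labelled and 112 to 138 CPM in WT-labelled libraries, a log2 difference of 0.17 (adjusted p = 0.0737).

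Of 14 subunits of the cytosolic chaperonin TRiC and prefoldin, Pfdn6 alone passed, at a log2 difference of -0.22 (edgeR adjusted p = 0.0182), while those of highest CPM, Pfdn5, Cct7 and Cct5, were at -0.33 (0.0529), -0.00 (0.972) and -0.04 (0.608). Of 9 mitochondrial proteostasis genes, 2 were lower and 0 higher, both parts of the matrix protease ClpXP: Clpp at -0.28 (adjusted p = 0.0138) and Clpx at -0.23 (0.0182). The genes of highest CPM on that list, Yme1l1, Lonp1 and Trap1, were at -0.04, 0.00 and 0.09, and none passed. Other targets and regulators of heat shock factor 1 moved in both directions. Zfand2a, an arsenite- and heat-induced zinc finger gene, had 38.6 to 43.7 CPM in KO-labelled and 33.8 to 38.5 CPM in WT-labelled libraries (log2 difference 0.23, edgeR adjusted p = 0.0193). Ubb, which encodes ubiquitin, had 864 to 949 CPM in KO-labelled and 1033 to 1247 CPM in WT-labelled libraries (log2 difference -0.29, edgeR adjusted p = 0.0113). Cryab, a small heat shock protein outside the Hspb names, was at -0.11 (adjusted p = 0.424), and the collagen chaperone Serpinh1 at 0.15 (0.244). The cold-inducible Cirbp and Rbm3 were at -0.01 and 0.00. Core clock genes, which set daily rhythms, are listed because stress and chaperone genes vary with the time of day in many tissues: of 17 tested, 8 were higher and 4 lower, with Dbp at 1.56 (edgeR adjusted p = 0.0151) and Arntl (Bmal1) at -1.40 (0.000361). The part of time of day in the chaperone levels was not tested. None of the partner or clock genes passed with the KO counts summed into 1 sample.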

How the data were processed

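The authors deposited whole-number read counts per gene for 10 aorta libraries, 35667 genes each. Per the labels' protocols, RNA was extracted with Trizol from frozen aorta and 1 ug of total RNA was used with the Illumina TruSeq RNA kit. Bowtie 0.12.2 is named in the submitters' processing notes, beside the builds mm8 and mm9. The counting tool, gene models and use of strand are not given there. Coordinates come from GENCODE M21 (GRCm38), matched by Ensembl identifier for 35519 genes and all 74 members, 40 of which overlap another gene, so that reads may be shared or dropped there.

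Libraries were grouped by title. Genes were kept with filterByExpr (minimum count 10, minimum total 15), scaled by TMM and tested in edgeR 4.0.16 (R 4.3.3) by its quasi-likelihood F test, without covariates, and p-values were adjusted by Benjamini-Hochberg over all tested genes at 0.05. CPM are TMM-scaled, and SE is the size of the log2 difference over the root of F. Nothing says that the libraries came from separate animals, so p-values measure the spread between these libraries. A second fit set the summed KO counts, taken to vary like a WT library, against the WT libraries. Both fits were tested on simulated data. Alternatives were other size factors, no filter, a replicate block, each library left out, WT replicates 1 and 3 left out, DESeq2 1.42.0 and limma 3.58.1 (voom with sample weights); scaling by total counts alone was added after seeing the data.

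Members and lists were chosen with earlier results of these data known. Named are all members outside the J-domain genes and, of the J-domain genes, those called, the 6 of highest mean CPM and the 6 with the largest differences at a mean log2 CPM of at least 1. Of the partner lists, genes past the threshold and those of highest CPM are named. Some genes that this rule names are not reported here. Other J-domain genes, and the choice of the 2-unit and ER stress motifs, followed after values were seen. Mitochondrial shares are percent of counts.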

Additional observations from a re-analysis of the deposited data

Results flagged for a closer look

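Among 39 named members in each group, 78 sets of 5 libraries in all, 5 held a library far from the other 4, and chance alone flags about 1 in 20. All 5 were KO-labelled, where the libraries otherwise lay close together. Hspb1 was 661 CPM in KO replicate 2, with the nearest other library at 742 CPM. Hspa1b was lowest in KO replicate 3, at 54.0 CPM with the nearest at 58.1 CPM, and Hspa1a was highest in the same library, at 26.6 CPM with the nearest at 24.3 CPM. Hspe1 was 88.5 CPM in KO replicate 3, with the nearest at 83.6 CPM. Dnajc8 was 141 CPM in KO replicate 5, with the nearest at 147 CPM. Without KO replicate 2 the log2 difference of Hspb1 was -0.62, and its call was kept.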

How the results depend on the processing

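The count of called members, 10 in the 5 against 5 comparison, was 6 to 13 with single libraries left out, 27 without WT replicates 1 and 3, and 33 with limma-voom (49.3% of members, background 41.2%). It was 10 with DESeq2 size factors, 12 without a filter, 13 with DESeq2 and 11 with total counts alone. Over all genes the count of 2242 (47.9% higher) was 1287 to 2678 with single libraries left out, 4386 without WT replicates 1 and 3 and 6477 with limma-voom; total counts alone gave 2054 (76.0% higher) and no filter 1970 (65.7% higher). Same-numbered libraries did not deviate together (r from -0.040 to 0.042). The KO-labelled libraries differed by little beyond counting error, so these correlations cannot show whether the numbers pair the samples. With the replicate block, 7 members and 1319 genes were called.

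With the KO counts summed, 0 members were called under each alternative run, and 2 to 6 had an unadjusted p under 0.05. Over all genes the count of 7 was 1 to 5 without single WT libraries and 125 without a filter. Hspa1a, at -0.00, was 0.84 without WT replicates 1 and 3, a value from which no test is drawn, and 0.46 with limma-voom (adjusted p = 0.0406). Across the named genes and alternatives of the 5 against 5 comparison, 562 values kept direction and side of the threshold, 33 lost and 40 gained a call, 43 uncalled values changed sign, and the 2 values of Hspa1a both changed sign and passed; leaving out WT replicates 1 and 3 fixes the direction of that gene. The causes were not tested. Depth left 7 members untested, and the near-identical KO libraries limit every p-value.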
